A study of Mus musculus with 5 samples.

Results

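A set of 36 endothelial identity genes was followed in bulk RNA sequencing of mouse kidneys at embryonic day 15.5. They were chosen by symbol from a list of endothelial genes. The rule sets no condition on measured values, but the list was drawn up with earlier results of these data known. All 36 were present in both deposited tables, among 32793 genes, and all 36 passed the filter on low counts. Following the list's own division, 32 were treated as pan-endothelial, 3 as arterial (Gja4, Gja5 and Sox17) and 1 as glomerular (Ehd3). The NICD_mut group (2 libraries) came from kidneys with Six2TGC/+ and RosaN1ICD∆PEST. Six2TGC is a transgene that makes Cre recombinase in nephron progenitors under Six2 control. RosaN1ICD∆PEST is an allele that releases an activated Notch1 fragment, without its PEST degradation domain, once Cre has acted. The NICD_wt group (3 libraries) came from littermates with RosaN1ICD∆PEST and no Cre. The activating allele is thus shared by both groups, while the driver is present in NICD_mut alone, so what comes from the driver and what from the Notch1 fragment cannot be told apart. The driver acts in the nephron lineage, and the endothelium is a different lineage of the same organ. The labels do not say that libraries came from separate animals, so p-values cover only library-to-library spread, part of which may be technical.

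Endothelial cells line blood vessels and are held together by their own cadherin and claudin junctions. Their identity rests on transcription factors of the ETS, SOX18-related (SoxF) and TAL1 families, and their growth is guided by VEGF, angiopoietin, apelin and Notch signals. In the embryonic kidney they form arteries, peritubular capillaries and the fenestrated capillaries of the glomerulus. Notch signalling within endothelium is known for its part in arterial specification.

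Libraries held 17361823 to 21356447 counts. Of 6 kidney markers, all detected in each library, 3 were higher in NICD_mut (Pax8, Wt1 and Cdh16). The 2 that were lower were Pax2, by 1.98, and Lhx1, by 1.60 on the log2 scale, and Emx2 did not pass. By the test described below, 47.7% of all tested genes passed in either direction. Skeletal muscle transcripts set NICD_mut 1 apart, with a summed level of 3755 TPM over 8 muscle genes, against 157 TPM in NICD_wt 1 and 8.0 to 24.9 TPM in the other libraries. TPM is the deposited transcript abundance, corrected for gene length and depth. Where leaving out NICD_mut 1 and NICD_wt 1 together changed the call of an endothelial gene described here, that value, from a fit with 1 NICD_mut library, is given.

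Most endothelial genes were higher in NICD_mut kidneys, relative to the total of each library. Of the 36, 27 rose, 1 fell and 8 did not pass at an adjusted p of 0.05. The test was the quasi-likelihood test of edgeR, with Benjamini-Hochberg (BH) adjustment over 15885 genes. Over all tested genes 23.0% rose, 24.8% fell and 47.7% passed in either direction. The median log2 fold change of the list, NICD_mut minus NICD_wt, was 0.54, against 0.01 over all tested genes. Both NICD_mut libraries lay above every NICD_wt library in CPM (depth-scaled counts with TMM factors) for 28 of the genes, below for 2, and overlapped for 6. Over all tested genes 32.9% lay above and 34.2% below. The increases were moderate: 26 of the 27 lay between 1.17-fold and 2.12-fold, and the remaining one, Cldn5, was 4.71-fold. CPM and TPM are shares of each library. In whole organs, more cells of a type, more RNA per cell and a smaller share of RNA from other cells cannot be told apart.

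**Figure D1:**
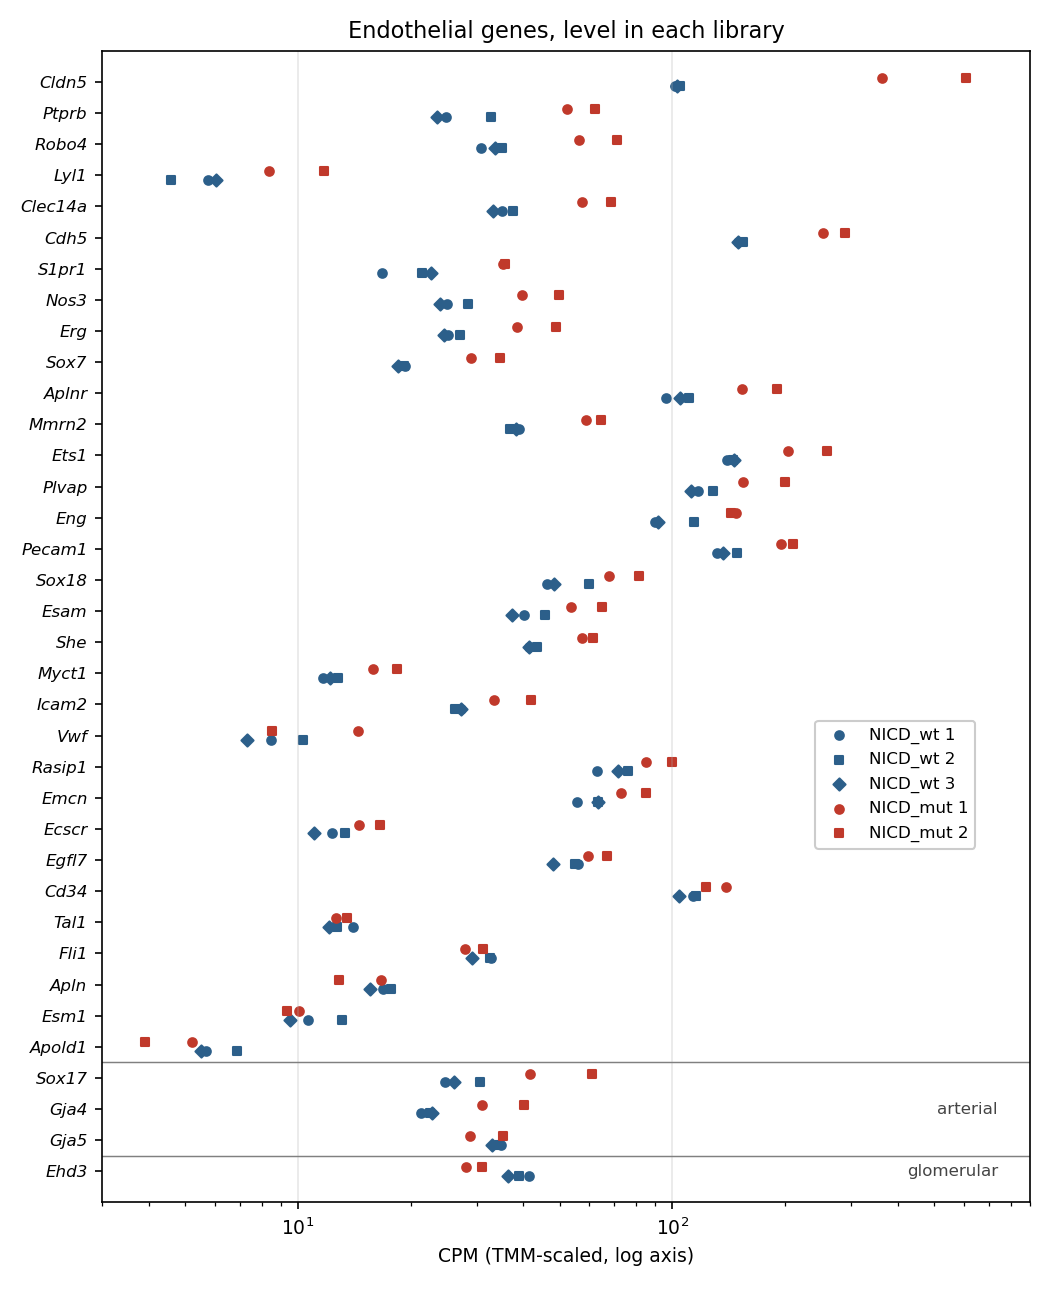
Level of each endothelial gene in each library, in TMM-scaled CPM on a log axis, with NICD_wt libraries in blue and NICD_mut libraries in red. For most pan-endothelial genes both red points lie to the right of all 3 blue points, with Cldn5 the farthest apart, while Ehd3 in the lowest row shows the opposite order.

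Summed over the genes, the level was 2109 and 2624 TPM in NICD_mut and 1180, 1296 and 1182 TPM in NICD_wt. Cldn5 carried much of that difference. Without it the sum was 1576 and 1752 TPM in NICD_mut against 1046, 1154 and 1045 TPM in NICD_wt, a ratio of means of 1.54. The TPM scale was itself shifted towards NICD_mut. The median log2 fold change of all genes was 0.11 on log2(TPM + 1), against 0.01 on counts. All sums of TPM given here are on that scale. Levels within control kidneys ran from 137 ± 3.80 TPM for Cldn5 (SD, n = 3) to 1.98 ± 0.142 TPM for Vwf (SD, n = 3). Plvap followed Cldn5 at 104 ± 7.71 TPM. The next 3 genes, Emcn, Egfl7 and Cd34, lay between 76.2 and 77.7 TPM, and differed by less than their SDs. NICD_mut 2 was above NICD_mut 1 in CPM for 30 of the 36 genes.

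Junction and surface proteins rose in 11 of 12 cases, at a median log2 fold change of 0.53. For this and each count by role below, the share of all tested genes that rose was 23.0%. Cdh5 encodes VE-cadherin, the adherens junction cadherin of endothelium (mm10, chromosome 8, 104101625 to 104144511, plus strand). Its level was 252 and 288 CPM in NICD_mut and 149.5, 155 and 150 CPM in NICD_wt. The groups were well separated, and the log2 fold change was 0.84 (SE 0.07; edgeR, BH-adjusted p = 3.01e-05), the smallest adjusted p of the 36 genes. Pecam1, the platelet endothelial adhesion molecule at cell contacts, was at 195 and 209.7 CPM against 131.5, 148 and 136 CPM. Its increase was smaller, 0.55 log2 (SE 0.07; edgeR, BH-adjusted p = 0.000322). Clec14a, a C-type lectin of the vessel surface, was at 57.5 and 68.5 CPM against 35.1, 37.6 and 33.1 CPM. It rose by 0.84 log2 (SE 0.10), close to Cdh5.

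Among these surface genes Cldn5 and Ptprb rose by more than 2-fold, and both are named here for the size of their change. Cldn5, a tight junction claudin (mm10, chromosome 16, 18776847 to 18778262, plus strand), was at 362 and 609 CPM in NICD_mut and at 101.4, 105 and 103 CPM in NICD_wt. The controls were almost level, whereas the NICD_mut libraries differed from each other by more than any control level. The log2 fold change was 2.24 (SE 0.25; edgeR, BH-adjusted p = 0.00398), with 1.81 without NICD_mut 2 and 2.56 without NICD_mut 1. Cldn5 is also made by podocytes, the epithelial cells of the glomerular filter. Summed TPM of 6 podocyte markers was 627 and 866 in NICD_mut and 326, 347 and 335 in NICD_wt, so that NICD_mut 2 was highest for both. The part of podocytes in the Cldn5 value was not tested. Ptprb, the vascular endothelial receptor phosphatase VE-PTP, was at 52.4 and 62.3 CPM against 24.9, 32.8 and 23.5 CPM and rose by 1.08 log2 (SE 0.15).

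The remaining surface genes rose less. Plvap, the diaphragm protein of fenestrated capillaries, rose by 0.57 log2 (SE 0.12), the adhesion molecules Esam and Icam2 by 0.52 (SE 0.11) and 0.48 (SE 0.11), and the sialomucin Emcn by 0.38 (SE 0.09). Myct1 rose by 0.49 log2 (SE 0.13). It did not pass without NICD_mut 2, without NICD_wt 1, or with the replicate number as a block (edgeR, BH-adjusted p = 0.0727, 0.0542 and 0.0642). Cd34, a sialomucin shared with blood progenitors, had the smallest increase, 0.23 log2 (SE 0.08). Its groups did not overlap, at 139 and 123 CPM against 114, 116 and 104 CPM. It did not pass without NICD_mut 1 (0.14), NICD_wt 1 (0.25) or NICD_wt 3 (0.19), with the replicate block (0.19), or without NICD_mut 1 and NICD_wt 1 together (0.15). Ecscr, a regulator of endothelial migration, was at 14.6 and 16.5 CPM against 12.3, 13.4 and 11.1 CPM. These groups did not overlap either, but the value of 0.34 log2 (SE 0.14) did not pass (edgeR, BH-adjusted p = 0.0755). It passed by limma on log2(TPM + 1), at 0.43 (BH-adjusted p = 0.0147).

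**Figure D2:**
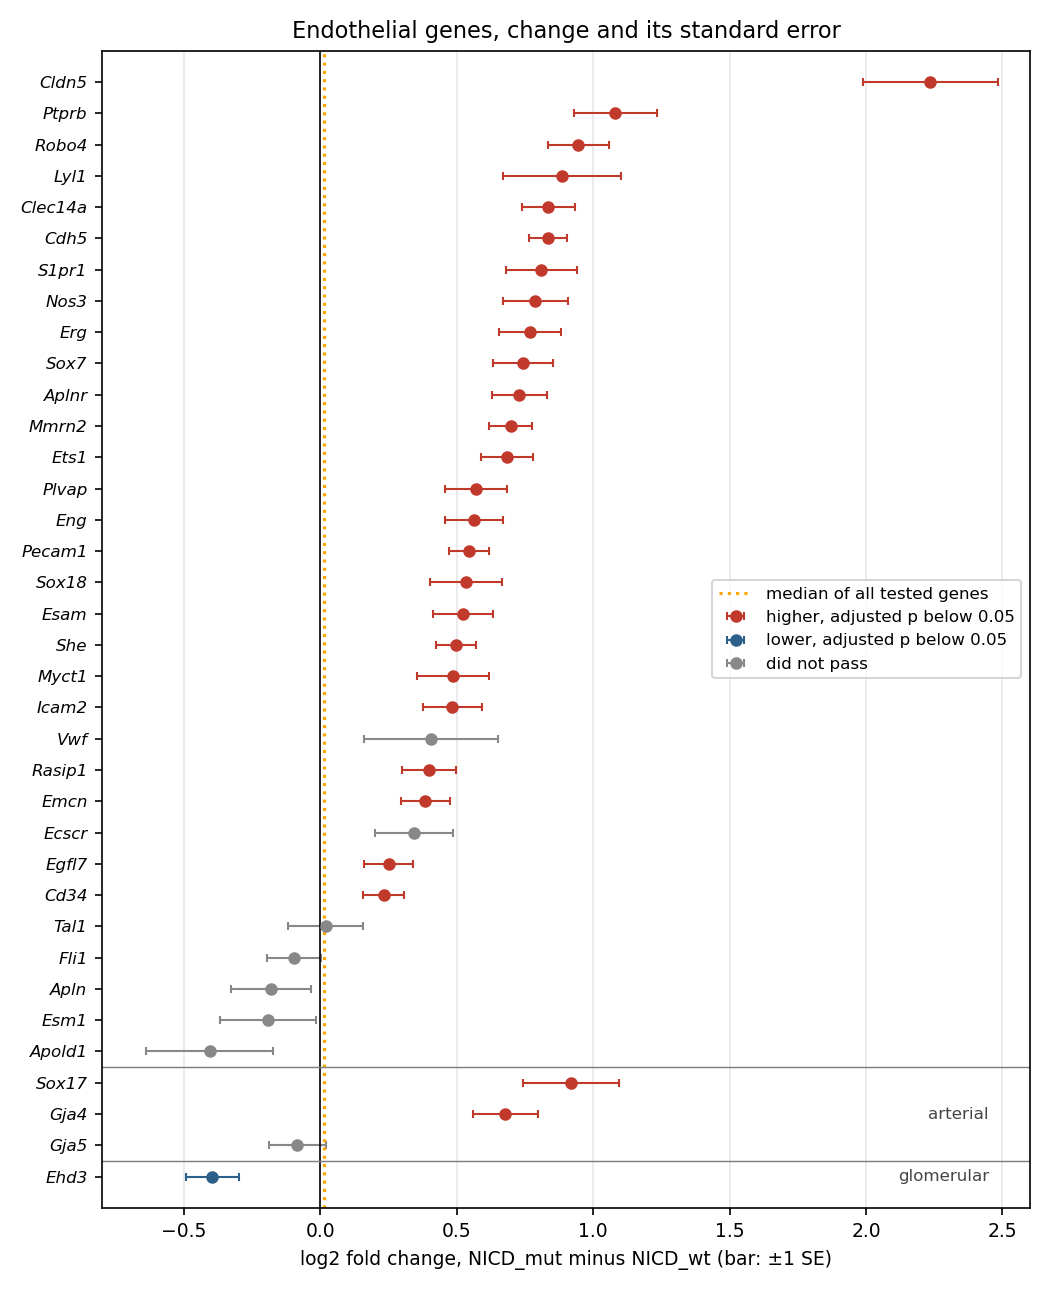
Log2 fold change of each endothelial gene, NICD_mut minus NICD_wt, with bars of 1 SE from the edgeR fit, the zero line in black and the median of all tested genes dotted. Cldn5 stands apart at 2.24, most other genes lie between 0.23 and 1.08, and Ehd3 is the one gene that fell, at -0.40.

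Receptors rose in 4 of 4 cases, while the ligand Apln did not pass. Robo4, a guidance receptor that stabilises vessels, was at 56.4 and 71.2 CPM in NICD_mut against 30.8, 35.1 and 33.5 CPM in NICD_wt. It rose by 0.95 log2 (SE 0.11; edgeR, BH-adjusted p = 0.000172). Aplnr, the apelin receptor, was at 154 and 191 CPM against 96.4, 111 and 104.5 CPM, an increase of 0.73 log2 (SE 0.10). S1pr1, the sphingosine-1-phosphate receptor that also guides lymphocytes, was at 35.3 and 35.7 CPM against 16.8, 21.4 and 22.6 CPM, 0.81 log2 higher (SE 0.13). Here the NICD_mut libraries were nearly equal and NICD_wt 1 was the lowest. Eng, the TGF-beta co-receptor endoglin, rose by 0.56 log2 (SE 0.11). At 0.58 it did not pass without NICD_mut 2 (edgeR, BH-adjusted p = 0.0582). Apln, the ligand of Aplnr and a product of sprouting tip cells, was at 16.7 and 12.9 CPM against 16.9, 17.7 and 15.6 CPM. The groups overlapped, and the difference was -0.18 log2 (SE 0.15; edgeR, BH-adjusted p = 0.345).

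Secreted and matrix proteins were divided, with 2 of 4 higher, against 23.0% of all tested genes. A count over so few genes says little about the role. Mmrn2, an endothelial matrix glycoprotein, was at 58.7 and 64.5 CPM against 38.9, 36.9 and 38.2 CPM, an increase of 0.70 log2 (SE 0.08; edgeR, BH-adjusted p = 0.00013). Egfl7, a secreted vessel protein, rose by 0.25 log2 (SE 0.09; edgeR, BH-adjusted p = 0.0441). That call was lost without any of NICD_mut 2 (0.16), NICD_wt 1 (0.29), NICD_wt 2 (0.28) or NICD_wt 3 (0.18), and with the replicate block (0.18). Esm1, a tip cell proteoglycan, was at 10.04 and 9.37 CPM against 10.6, 13.1 and 9.49 CPM. The groups overlapped and the value was -0.19 log2 (SE 0.18). Vwf, the clotting factor carrier made by endothelium and megakaryocytes, was at 14.5 and 8.53 CPM against 8.46, 10.3 and 7.31 CPM. NICD_mut 1 alone was above the controls. The value of 0.405 log2 (SE 0.25) did not pass (edgeR, BH-adjusted p = 0.211). It was 0.72 and passed without NICD_mut 2 (edgeR, BH-adjusted p = 0.00984), and was -0.03 without NICD_mut 1.

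Of 8 transcription factors, 6 rose at a list median of 0.71 log2, and the members of the SoxF family all rose. Sox7 was at 28.9 and 34.6 CPM against 19.3, 19.2 and 18.5 CPM, an increase of 0.74 log2 (SE 0.11; edgeR, BH-adjusted p = 0.000609). Sox18 rose by 0.53 log2 (SE 0.13), but did not pass without NICD_mut 2 (0.39) or without NICD_wt 3 (0.49). The ETS factor Erg, which maintains endothelial gene expression, was at 38.5 and 48.9 CPM against 25.2, 27.1 and 24.6 CPM, 0.77 log2 higher (SE 0.11). Ets1, shared with lymphocytes and stroma, was at 203 and 258 CPM against 139.6, 145 and 145.6 CPM, 0.69 log2 higher (SE 0.10). Their relative Fli1, shared with blood cells, did not follow. It was at 28.0 and 31.1 CPM against 32.8, 32.6 and 29.2 CPM, with overlapping groups and a value of -0.10 log2 (SE 0.10; edgeR, BH-adjusted p = 0.459). On log2(TPM + 1) its value was 0.03.

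The helix-loop-helix factors Tal1 and Lyl1, which act in blood and endothelium, also parted. Tal1 was at 12.7 and 13.6 CPM against 13.99, 12.7 and 12.1 CPM, a difference of 0.02 log2 (SE 0.14). Lyl1 was at 8.395 and 11.7 CPM against 5.74, 4.585 and 6.04 CPM and rose by 0.88 log2 (SE 0.22). The groups of Lyl1 did not overlap. Without NICD_mut 2 its value was 0.62 and did not pass (edgeR, BH-adjusted p = 0.0527).

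Several of these genes are shared with blood cells, whose markers also differed between the groups. Summed TPM of 9 leukocyte markers was 181.5 and 172 in NICD_mut and 88.0, 73.4 and 89.4 in NICD_wt, with 6 of 9 higher, 3 not passing and a median of 1.21 log2. None was at 0, but the pan-leukocyte gene Ptprc had a value of -0.38 log2 (SE 0.21) and did not pass. Summed TPM of 6 platelet and megakaryocyte markers was 55.4 and 51.9 against 30.5, 36.4 and 25.7, with 2 of 5 tested higher. That of 8 erythroid markers was 51170 and 59220 against 25980, 25810 and 20630, with 4 of 8 higher. Of all tested genes, 23.0% rose and 47.7% passed in either direction. The part of blood cells in the levels of Cd34, Ets1, Fli1, S1pr1, Tal1, Lyl1 and Vwf was not tested. Markers of other vessel-associated cells differed by list. Of 8 mural markers 4 rose, none fell and 4 did not pass, at a median of 0.78 log2. Those that rose were Pdgfrb (1.185, SE 0.148), Cspg4 (1.421, SE 0.101), Rgs5 (0.74, SE 0.082) and Notch3 (0.697, SE 0.097). The mural sums were 936 and 442 TPM against 295, 402 and 331.5 TPM. The sum of 936 TPM, in NICD_mut 1, held Acta2 at 396 TPM, Tagln at 191 TPM and Myh11 at 84.0 TPM. None of these passed. Of 4 lymphatic markers 2 rose and 1 fell, with sums of 66.5 and 46.6 TPM against 45.2, 51.9 and 43.3 TPM. The lymphatic sum of NICD_mut 2 lay within the range of the controls. The lymphatic regulator Prox1 was at 129 and 37 counts against 45, 41 and 36 counts, and like the lymphatic sum it was highest in NICD_mut 1.

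**Figure D3:**
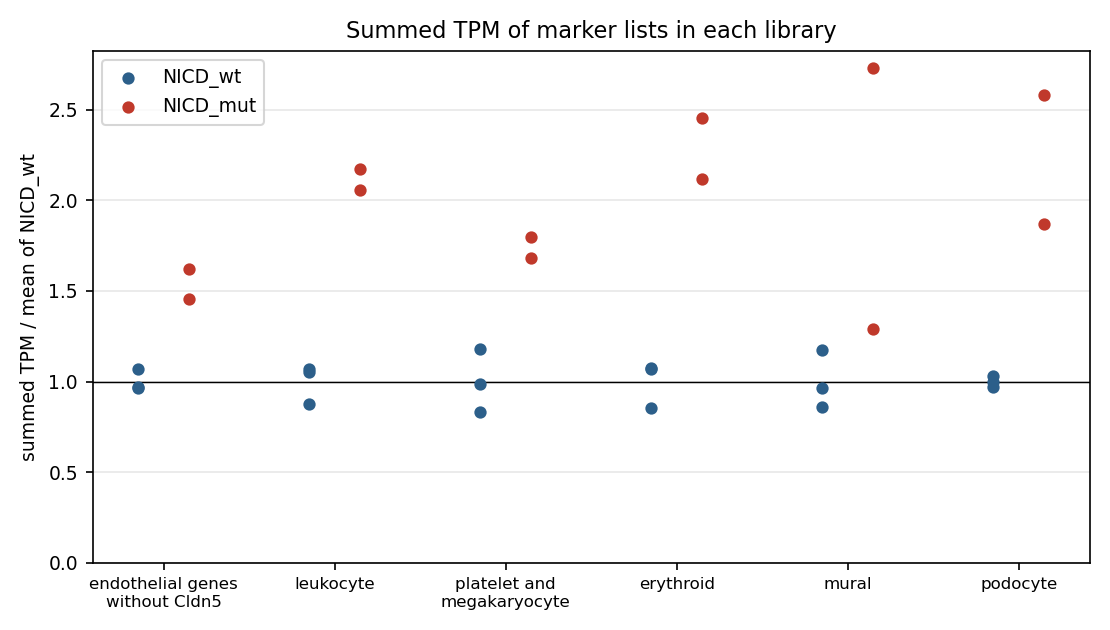
Summed TPM of marker lists in each library, divided by the mean of the 3 NICD_wt libraries. The endothelial genes without Cldn5 lie at a mean ratio of 1.54 in NICD_mut, below both NICD_mut points of the leukocyte, platelet, erythroid and podocyte lists, and the mural list differs between the NICD_mut libraries.

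Intracellular proteins rose in 3 of 5 cases, against 23.0% of all tested genes, which is again a count over few genes. Nos3, the endothelial nitric oxide synthase, was at 39.7 and 49.7 CPM against 25.1, 28.5 and 23.99 CPM, an increase of 0.79 log2 (SE 0.12; edgeR, BH-adjusted p = 0.000702). The adaptor gene She was at 57.5 and 61.5 CPM against 41.5, 43.4 and 41.5 CPM, with a tight spread in both groups, and rose by 0.50 log2 (SE 0.07). Rasip1, an effector of Rap1 needed for vessel lumens, rose by 0.40 log2 (SE 0.10). Apold1, an immediate-early gene of endothelium, was at 5.21 and 3.90 CPM against 5.69, 6.88 and 5.52 CPM. Both NICD_mut libraries were below the controls, but the value of -0.41 log2 (SE 0.23) did not pass (edgeR, BH-adjusted p = 0.183). By limma on log2(TPM + 1) the value of -0.54 passed (BH-adjusted p = 0.0413).

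The arterial genes did not move as one group: Sox17 and Gja4 rose and Gja5 did not pass. Sox17, the SoxF factor of arterial endothelium (mm10, chromosome 1, 4490931 to 4497354, minus strand), was at 41.6 and 61.2 CPM in NICD_mut and 24.8, 30.6 and 26.1 CPM in NICD_wt. NICD_mut 2 was well above NICD_mut 1, and the increase was 0.92 log2 (SE 0.18; edgeR, BH-adjusted p = 0.0059). Gja4 encodes connexin 37, a gap junction channel of arterial endothelium (mm10, chromosome 4, 127311421 to 127314039, minus strand). It was at 31.1 and 40.05 CPM against 21.3, 22.6 and 22.8 CPM, an increase of 0.68 log2 (SE 0.12; edgeR, BH-adjusted p = 0.00156). Gja5 encodes connexin 40, its partner in arterial gap junctions (mm10, chromosome 3, 96904693 to 97077416, plus strand). It was at 28.9 and 35.4 CPM against 34.8, 34.4 and 33.03 CPM, so that one NICD_mut library was below all controls and the other above them. The difference was -0.09 log2 (SE 0.11; edgeR, BH-adjusted p = 0.533), and 0.05 without NICD_mut 1.

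The glomerular gene went the other way. Ehd3, a membrane trafficking ATPase of glomerular endothelium (mm10, chromosome 17, 73804134 to 73832094, plus strand), was at 28.1 and 31.0 CPM in NICD_mut and at 41.5, 38.9 and 36.4 CPM in NICD_wt. Both NICD_mut libraries were below all controls. Ehd3 fell by 0.40 on the log2 scale (SE 0.10; edgeR, BH-adjusted p = 0.00837). It kept its call when any single library was left out. It did not pass without NICD_mut 1 and NICD_wt 1 together (-0.28; edgeR, BH-adjusted p = 0.0735). By limma on log2(TPM + 1) it was at -0.26 (BH-adjusted p = 0.0509), on a scale where the median of all genes was shifted by 0.11.

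The ratio of counts to Cdh5 inside each library compares these genes with a pan-endothelial gene without any scaling to the library total. For Ehd3 the log2 ratio was -3.16 and -3.22 in NICD_mut and -1.85, -1.99 and -2.04 in NICD_wt, a difference of -1.23. For Gja5 it was -3.12 and -3.03 against -2.10, -2.17 and -2.18, a difference of -0.92. In both cases the groups were far apart compared with their spread. For Gja4 the difference was -0.16 (group means -2.93 ± 0.120, SD, n = 2, and -2.77 ± 0.046, SD, n = 3), and for Sox17 it was 0.07 with overlapping groups. The exact two-sided permutation test gave p = 0.2 for Ehd3, Gja5 and Gja4, the smallest that 2 against 3 libraries allow, and p = 0.8 for Sox17. Adjusted over these 4 genes the exact values were 0.267 and 0.8, so none could pass. Relative to Pecam1 the differences were -0.94 for Ehd3, -0.64 for Gja5, 0.12 for Gja4 and 0.35 for Sox17, so the sign of Gja4 depended on the reference.

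Across the other endothelial genes the ratio to Cdh5 sorted those that rose less. Of all 35 genes set against Cdh5, 24 had a lower ratio in both NICD_mut libraries than in every control, 1 (Cldn5) a higher one, and 10 overlapped. Cdh5 itself rose by 0.84 log2, so a lower ratio only restates a smaller rise than that of Cdh5, or a fall. The share of all tested genes with a lower ratio was not computed. Against Pecam1 the counts were 12 lower, 12 higher and 11 overlapping. The ratio differences were -1.25 for Apold1, -1.02 for Apln, -1.01 for Esm1, -0.93 for Fli1 and -0.81 for Tal1, near those of Ehd3 and Gja5. Clec14a, S1pr1, Nos3, Erg, Lyl1 and Aplnr kept overlapping ratios, between -0.11 and 0.04. These ratios are descriptions and were not tested.

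**Figure D4:**
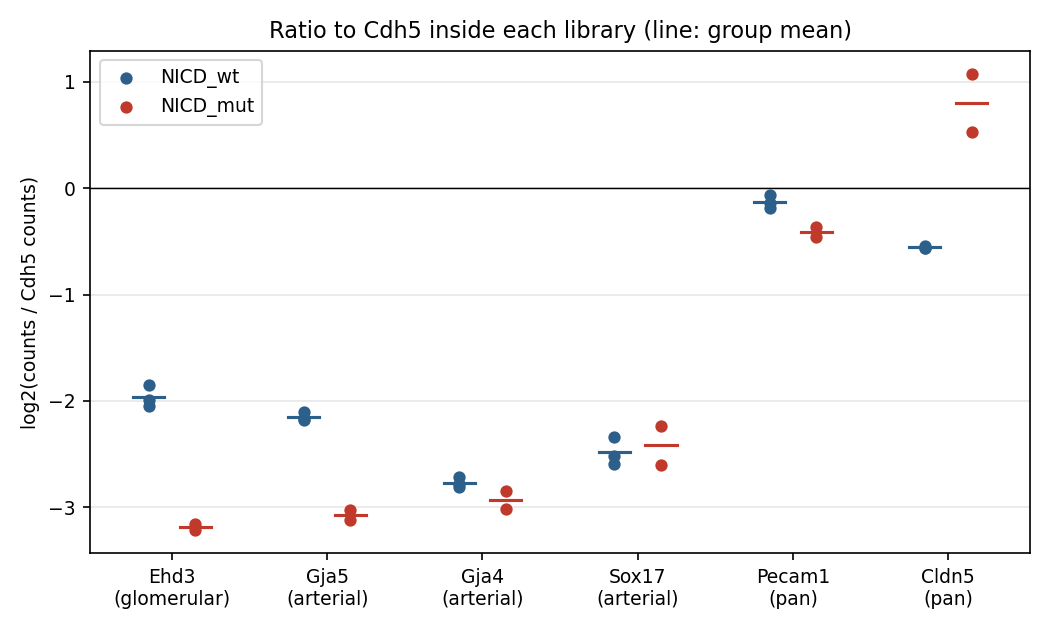
Log2 ratio of counts to Cdh5 in each library for the glomerular gene, the 3 arterial genes and, for reference, Pecam1 and Cldn5, with short lines at group means. Ehd3 and Gja5 lie about 1 log2 unit lower in NICD_mut (-1.23 and -0.92), Sox17 overlaps, and Cldn5 is higher by 1.36.

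Upstream sequence was available for 19 of the 36 genes (RefSeq, GRCm38.p6, the build named mm10). The 250 bases before the annotated start are printed for the genes that separate the subgroups and for Cldn5, 5′ to 3′ on the gene's strand. For Ehd3 and Gja5 the RefSeq start lies inside the gene span given above. Capitals mark matches on either strand to TGGGAA, the core bound by RBPJ, the DNA-binding partner of Notch, and to ACAAT, a core bound by SOX factors. The ETS core CCGGAA was also searched and had no match in these 4 windows.
Ehd3, chr17:73804591-73804840, plus strand, value -0.40 log2: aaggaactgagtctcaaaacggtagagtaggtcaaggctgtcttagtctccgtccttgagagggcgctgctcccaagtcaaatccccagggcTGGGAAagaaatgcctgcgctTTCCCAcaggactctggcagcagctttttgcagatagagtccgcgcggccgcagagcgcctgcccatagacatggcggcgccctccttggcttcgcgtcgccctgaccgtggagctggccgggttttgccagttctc
Gja5, chr3:97032152-97032401, plus strand, value -0.09 log2: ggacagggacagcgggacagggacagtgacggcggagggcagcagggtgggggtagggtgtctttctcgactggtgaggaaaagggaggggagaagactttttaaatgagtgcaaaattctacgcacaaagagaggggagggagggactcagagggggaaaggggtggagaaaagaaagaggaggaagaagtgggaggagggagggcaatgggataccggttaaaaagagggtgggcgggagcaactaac
Gja4, chr4:127314040-127314289, minus strand, value 0.68 log2: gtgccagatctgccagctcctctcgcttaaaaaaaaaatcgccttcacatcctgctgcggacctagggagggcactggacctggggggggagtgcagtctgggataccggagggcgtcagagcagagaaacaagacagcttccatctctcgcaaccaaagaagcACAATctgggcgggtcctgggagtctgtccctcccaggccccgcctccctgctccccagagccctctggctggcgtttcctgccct
Cldn5, chr16:18776597-18776846, plus strand, value 2.24 log2: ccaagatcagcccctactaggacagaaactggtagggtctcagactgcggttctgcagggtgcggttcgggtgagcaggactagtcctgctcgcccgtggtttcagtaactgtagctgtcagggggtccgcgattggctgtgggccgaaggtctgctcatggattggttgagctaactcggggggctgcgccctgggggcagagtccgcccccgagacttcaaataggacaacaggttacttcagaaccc
Ehd3, which fell, held 2 matches to the RBPJ core, on opposite strands. Gja4 held 1 SOX match, and neither Gja5 nor Cldn5 held any of the 3 motifs. The 19 genes had 24 windows, of which 5 held an RBPJ match, 8 a SOX match and 1 an ETS match, each in a different gene for a given motif. Among all 32851 windows of the same length, 21.59% held the RBPJ core, 27.66% the SOX core and 12.03% the ETS core. A match to a short core is a description of the letters and not a binding site.

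Of a further 21 endothelial genes outside the list, 13 rose, 1 fell and 7 did not pass, with a median of 0.64 log2. Over all tested genes 23.0% rose and 24.8% fell. This second list was also drawn up with earlier results of these data known. Kdr, the main VEGF receptor, was at 168.5 and 172 CPM against 81.75, 95.0 and 82.9 CPM and rose by 0.98 log2 (SE 0.07; edgeR, BH-adjusted p = 1.97e-05). The surface receptor Cd93 rose by 0.87 log2 (SE 0.07), the BMP9 receptor Acvrl1 by 0.87 (SE 0.07) and the VEGF co-receptor Nrp1 by 0.64 (SE 0.06). Arterial Efnb2 rose by 0.54 log2 (SE 0.12), while arterial Dll4 (0.30, SE 0.12) and Bmx (0.70, SE 0.45) did not pass. Venous Nr2f2 (-0.03, SE 0.08) and Ephb4 (0.18, SE 0.07) did not pass either. In whole kidneys, the part of endothelium in these arterial and venous values was not tested. Without NICD_mut 1 both Dll4 (0.365) and Ephb4 (0.28) passed, as they did without NICD_mut 1 and NICD_wt 1 together (0.42 and 0.29), where Nr2f2 was at 0.12 and did not pass. Flt4, a VEGF-C receptor, rose by 0.41 log2 (SE 0.11), but did not pass without those libraries together (0.30), without NICD_mut 1 (0.37), NICD_wt 1 (0.35) or NICD_wt 3 (0.35), or with the replicate block (0.36). Without NICD_mut 2, Nr2f2 fell by 0.20 on the log2 scale.

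Further genes linked to glomerular endothelium were mixed too. Which cells of the whole kidney made these transcripts was not tested. Gata5 and Plat are named here after their values were seen. The transcription factor Gata5 was at 24.8 and 19.0 CPM against 8.86, 10.99 and 10.2 CPM and rose by 1.13 log2 (SE 0.16). Plat, the tissue plasminogen activator, was at 455.5 and 643.5 CPM against 128, 119.6 and 123 CPM, 2.15 log2 higher (SE 0.15). The transcription factor Tbx3 was at 65.2 and 49.6 CPM against 73.55, 78.7 and 72.3 CPM. Tbx3 fell by 0.38 on the log2 scale (SE 0.11; edgeR, BH-adjusted p = 0.0253). It did not pass without NICD_wt 1, 2 or 3, or with the replicate block (edgeR, BH-adjusted p = 0.0682, 0.0871, 0.0568 and 0.0577). Ehd3 and Tbx3 were thus lower and Gata5 and Plat higher in the same libraries.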

How the data were processed

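The submitters' processing notes name RSEM, Bowtie2 and mm10, with versions, annotation and strandedness not given in the sources used here. The authors deposited whole-number estimated counts and TPM per gene symbol, and columns were matched to samples by name. Counts were scaled with TMM, filtered with filterByExpr (minimum count 10, minimum total 15) and tested with the edgeR 4.0.16 quasi-likelihood test (robust, R 4.3.3), with Benjamini-Hochberg adjustment over 15885 genes. SEs come from that fit. DESeq2 1.42.0 and limma 3.58.1 (voom, and log2 TPM with pseudocounts 1 and 0.1) were alternatives. Scripts were tested on simulated data.

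The genes, lists, alternatives and rule for named genes were chosen with earlier results of these data known. The rule took all arterial and glomerular genes, pan-endothelial genes that fell or did not pass, and the 12 with the smallest adjusted p. Of the further endothelial genes it took the 4 with the smallest adjusted p and any that fell; other genes named were chosen after their values were seen. Cdh5, Nos3, Eng, Plvap, Lyl1, Rasip1, Cd34, Egfl7, Ecscr and Gja5 (10 genes) overlap another counted gene in GENCODE, whose reads may not be separable. Precision is limited by 2 and 3 libraries; every gene had at least 79 counts in each.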

Additional observations from a re-analysis of the deposited data

How the results depend on the processing

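Under 17 alternatives, 23 of the 36 endothelial genes kept direction and call. The number that rose was 23 to 26 with 1 library left out and 24 with replicate number as a block, in which Cd34, Egfl7 and Myct1 did not pass. The number that fell was 0 without NICD_mut 1 and NICD_wt 1 together and 0 by limma on log2(TPM + 1) with no filter, which both lose Ehd3; with the filter, at either pseudocount, the gene that fell was Apold1. Of the 21 further endothelial genes, the number that fell was 0 to 2 with 1 library left out, and 0 under the block, as it was in each limma fit of log2 TPM.

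Reversals of the log2 fold change between groups concerned genes that had not passed. Tal1 was at -0.023 with the replicate block, and from -0.041 (without NICD_mut 2) to 0.079 with 1 library left out, also below 0 without NICD_wt 3 (-0.025). Over single libraries left out, Vwf ranged from -0.031 (without NICD_mut 1) to 0.724 and Gja5 from -0.247 to 0.052 (without NICD_mut 1). Without NICD_mut 1 and NICD_wt 1 together they were at -0.057 and 0.063. Fli1 was at 0.002 without those libraries, at 0.027 on log2(TPM + 1), with or without the filter, and at 0.028 on log2(TPM + 0.1). The ratios of Sox17 and Gja4, genes that had passed, also changed sign. Relative to Cdh5, Sox17 was at -0.021 as a ratio of TPM and from -0.113 (without NICD_mut 2) to 0.247 with 1 library left out. Relative to Pecam1, Gja4 was at 0.122. The cause was not tested. Same-numbered libraries had deviations correlated at 0.339 and 0.132, but NICD_mut 2 reached 0.239 with NICD_wt 3, and the labels give only shared numbers. The deviations of the NICD_mut libraries, taken from their own mean, mirror each other, so these correlations cannot decide on pairing. On log2(TPM + 1) 60.7% of changed genes were higher, against 48.1% on counts, and the endothelial median was 0.66. Without NICD_mut 1 or 2 the lone NICD_mut library is assumed to vary like the controls.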
